A study of Mus musculus with 12 samples.

Results

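The TGF-beta and BMP signalling genes examined here are 44 genes that were selected by symbol, from knowledge of the pathway, and all 44 were found among the 25745 genes of the table. By assigned role they are 7 ligands, 4 genes placed under ligand processing and storage, 7 antagonists, 9 receptors and co-receptors, 6 receptor-activated and common Smads, 6 intracellular inhibitors and 5 targets. RNA was sequenced from primary aortic smooth muscle cells of wild-type (WT) C57BL/6J mice that were 5 to 6 weeks old. The cells grew out of pieces of artery stripped of adventitia and endothelium and were used at passages 5 to 8. There were 4 groups of 3 libraries: Control cells in basal medium, Calcification cells in medium with 3.0 mM sodium phosphate for 7 days (the labels also call it calcium medium), and cells in that medium with an empty lentivirus (LV-Vector) or an αKlotho lentivirus (LV-Klotho). Nothing in the labels tells if any virus was given to the Control and Calcification cells, how many mice gave cells, or if replicates were separate cultures. P-values therefore reflect only how far these samples differ among themselves, perhaps for technical reasons, and in LV-Vector against Control the medium and the virus cannot be told apart.

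TGF-betas, activins and BMPs are secreted ligands that bring together type I and type II receptor kinases on the cell surface. TGF-beta and activin receptors phosphorylate Smad2 and Smad3, BMP receptors phosphorylate Smad1, Smad5 and Smad9, and each kind joins Smad4 to regulate genes in the nucleus. Latent TGF-beta is stored in the matrix, soluble antagonists trap the ligands, and inhibitory Smads and ubiquitin ligases dampen the signal. In smooth muscle, TGF-beta favours contractile and matrix genes, and BMP signalling has been studied for its part in calcification of the vessel wall.

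For 4 members, Bmp4, Smad1, Inhbb and Ltbp2, the 3 Control libraries did not overlap with any of the 9 libraries in calcification medium. Their upstream sequence is shown for that reason. Over all genes tested, 4.16% had all 9 of these libraries above the Controls and 2.78% had all 9 below. Each line gives the 250 bases before the transcript start, 5′ to 3′, from RefSeq on GRCm38.p6. Capitals mark the hypoxia response core (ACGTG or GCGTG) and the Smad box (CAGAC), both searched on either strand.
Bmp4 promoter (chr14:46390670-46390919, minus strand): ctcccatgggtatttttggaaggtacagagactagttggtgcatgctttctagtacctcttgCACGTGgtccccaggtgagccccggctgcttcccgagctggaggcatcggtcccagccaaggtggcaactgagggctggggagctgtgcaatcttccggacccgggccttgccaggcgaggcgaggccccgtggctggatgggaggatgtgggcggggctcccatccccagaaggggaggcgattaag
Smad1 promoter (chr8:79399429-79399678, minus strand): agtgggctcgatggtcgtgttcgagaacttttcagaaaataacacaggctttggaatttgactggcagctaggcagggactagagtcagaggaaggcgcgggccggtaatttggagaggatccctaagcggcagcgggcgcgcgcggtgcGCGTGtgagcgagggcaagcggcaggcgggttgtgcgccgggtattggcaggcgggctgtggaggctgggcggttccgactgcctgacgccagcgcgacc
Inhbb promoter (chr1:119422249-119422498, minus strand): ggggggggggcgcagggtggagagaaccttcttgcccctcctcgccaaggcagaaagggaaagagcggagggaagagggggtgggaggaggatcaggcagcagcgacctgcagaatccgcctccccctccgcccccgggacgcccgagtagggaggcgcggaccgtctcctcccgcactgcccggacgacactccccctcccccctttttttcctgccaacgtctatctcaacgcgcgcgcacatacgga
Ltbp2 promoter (chr12:84876492-84876741, minus strand): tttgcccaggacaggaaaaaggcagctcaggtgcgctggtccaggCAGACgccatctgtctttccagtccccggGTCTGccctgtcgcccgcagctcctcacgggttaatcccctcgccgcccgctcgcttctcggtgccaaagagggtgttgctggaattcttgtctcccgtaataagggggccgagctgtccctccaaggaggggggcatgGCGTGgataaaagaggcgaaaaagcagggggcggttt
The Bmp4 window held CACGTG, which reads as the hypoxia core on both strands, so that the 2 matches overlap. Smad1 held 1 match to the hypoxia core, Inhbb held 0, and Ltbp2 held 1. The Smad box was found 2 times in the Ltbp2 window, once on each strand (GTCTG is its reverse complement), and 0 times in the other windows. Among 32851 RefSeq promoter windows of the same length, 38.6% held the hypoxia core and 42.2% the Smad box. Promoters were matched for 32 of the 44 members, in 36 windows, of which 22 held the hypoxia core and 17 the Smad box. The BMP response core (GGCGCC) was in 12 of the 36 windows and in 9.59% of all, and the Smad palindrome (GTCTAGAC) in 0 of 36 and 0.167% of all. Neither was in the 4 windows shown. A match describes these letters only and says nothing of binding.

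Values are FPKM, fragment numbers scaled to exon length and library size. Depth was 16652000 to 20008000 fragments per library. Kl, the gene for αKlotho, had no fragment in 11 of the 12 libraries and 1 fragment in LV-Klotho replicate 3, where 3 fragments would have stood at 0.0193 FPKM at most. The group is therefore the libraries labelled Klotho, and a transgene of another sequence need not be counted in this row. Of 10 smooth muscle markers 9 had a mean of at least 1 FPKM, with sums of 159 to 1230 FPKM per library. Acta2, smooth muscle actin, stood at 128 to 245 FPKM in the replicates numbered 1 and at 580 to 1081 FPKM in the other libraries. Myh11, smooth muscle myosin, stood at 1.32 to 2.58 FPKM in the replicates numbered 1 and at 12.2 to 40.8 FPKM in the others. Endothelial markers summed to 2.12 to 10.9 FPKM, with 2 of 8 at a mean of 1 FPKM or more. Macrophage markers (4 of 8) summed to 28.9 to 122 FPKM over all libraries.

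A gene was tested if its mean over the 12 libraries was at least 1 FPKM, which left 42 members and 10758 genes in all. Nog and Chrdl1, both genes for secreted BMP antagonists, were under that level, at a mean of 0.122 and 0.152 FPKM. A gene was called at a limma adjusted p under 0.05 on the log2(FPKM + 1) scale, and all fold changes are on that scale, which understates changes of low genes. Levels differed widely between members. Id3, a BMP target, had the highest mean over all libraries (230.0 FPKM), followed by Nbl1 (225 FPKM), Fstl1 (133 FPKM) and Eng (119.6 FPKM), and the lowest of those tested was Tgfbi (1.01 FPKM).

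Calcification against Control asks about the medium alone. In it, 0 of 42 members were called by limma, where 0.706% of all genes were called. At an unadjusted limma p under 0.05 stood 6 members and 1239 of all 10758 genes. By limma-voom on recovered fragments 0 members were called. Libraries with the same replicate number deviated together in this comparison. With the replicate number as a block, Inhbb rose and Bmp4, Ltbp2 and Smad7 fell, which is 9.52% of members against 3.91% of all genes (2.74% higher and 1.17% lower). Groups did not overlap for 5 members, Inhbb and Smurf1 above Control and Bmp4, Ltbp2 and Smad1 below, where 14.7% of all genes had no overlap. The median log2 fold change was -0.09 over the members and 0.04 over all genes tested.

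LV-Vector against Control, which differ in medium and in a named virus, gave 9 called members, 1 higher and 8 lower, or 21.4% of members where 15.4% of all genes were called, 7.44% higher and 7.98% lower. The 8 that fell were Bmp4, Ltbp2, Bmpr1a, Bmpr2, Acvr2a, Smad1, Smad5 and Skil, and Inhbb rose. With upper-quartile scaling 0 members were higher and 12 lower, and over all genes 489 were called higher and 1184 lower, where the values as deposited gave 800 and 858. With the block 3 rose and 14 fell, 40.5% of members against 29.8% of all genes (15.8% higher and 14% lower). LV-Klotho against Control gave 0 called members by limma (1 by limma-voom), where 0.772% of all genes were called by limma. At an unadjusted limma p under 0.05 stood 8 members and 1604 of all 10758 genes. With the block 5 were called, 11.9% of members against 4.81% of all genes (3.16% higher and 1.65% lower): Inhbb rose, and Bmp4, Smad1, Smad7 and Ltbp2 fell. Groups did not overlap for 3 members above and 11 below Control in LV-Vector, where 41.6% of all genes had no overlap. In LV-Klotho they did not overlap for 2 above, Inhbb and Smurf1, and 6 below, Ltbp2, Smad7, Smad1, Bmp4, Skil and Id1, where 19.8% of all genes had none. These 3 comparisons share the same Control libraries.

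**Figure D1:**
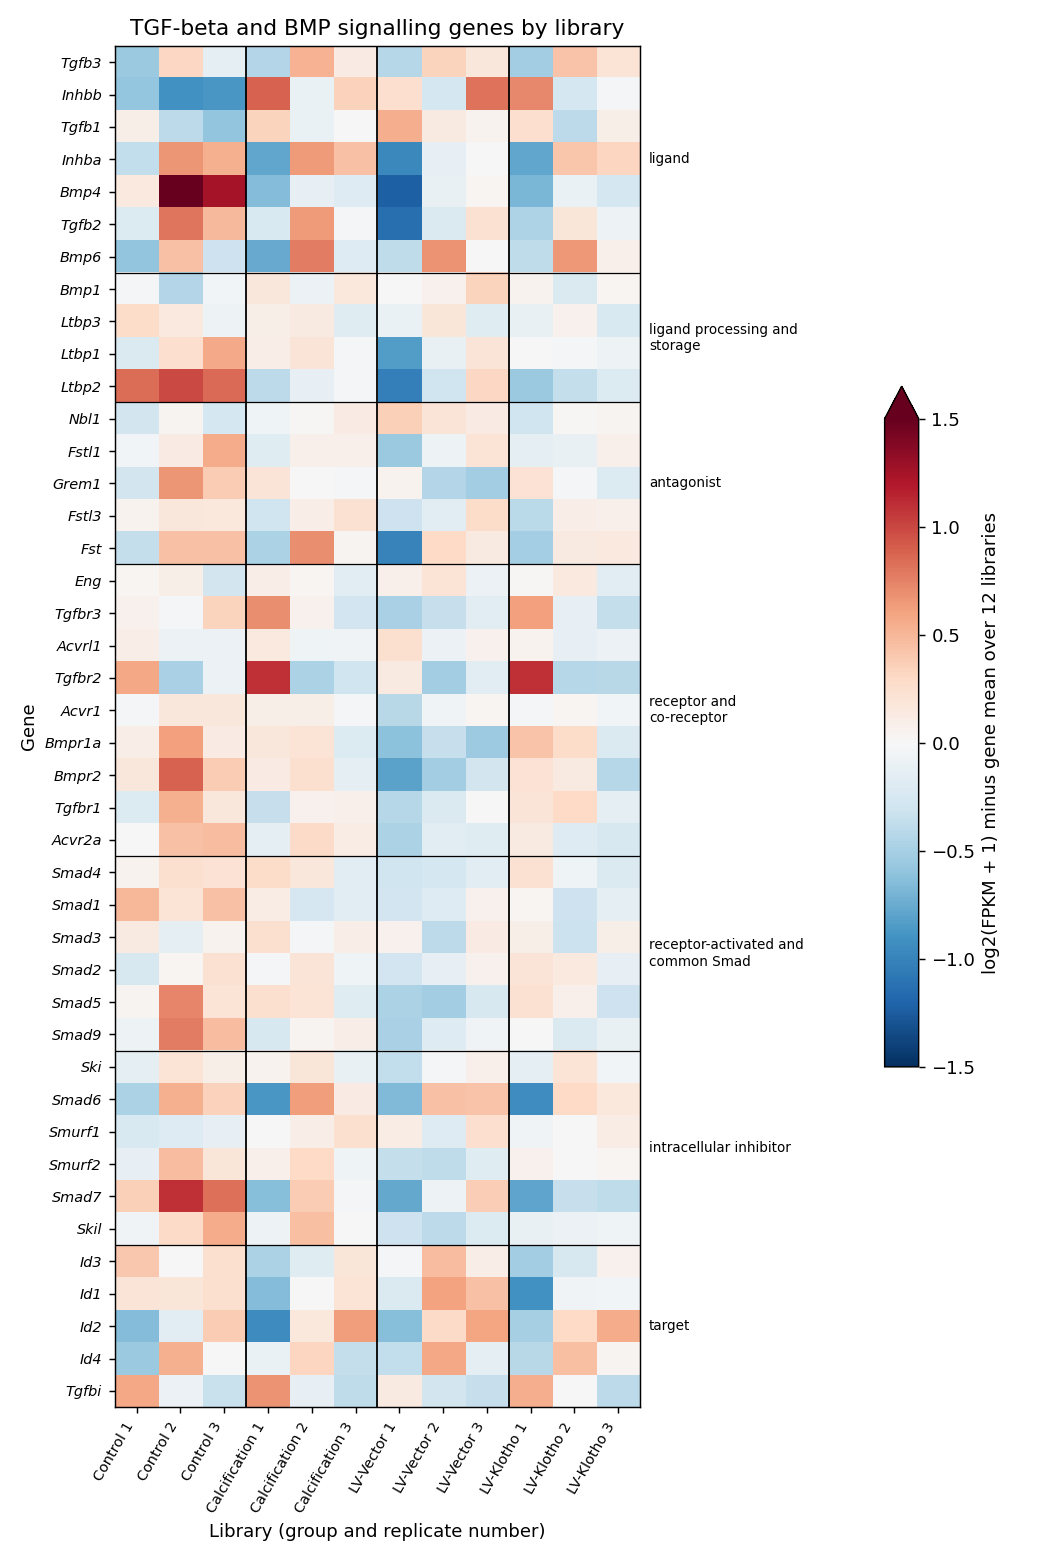
Heat map of the 42 tested members (rows, grouped by role and ordered by mean FPKM) in the 12 libraries (columns), as log2(FPKM + 1) minus the mean of the gene over all libraries, with the colour scale ending at 1.5 in either direction. Ltbp2 is red and Inhbb blue in all 3 Control columns, Bmp4 is darkest red in Control replicates 2 and 3, and Smad6, Inhba and Id2 are blue in the first column of each group.

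Among the ligands, Bmp4 and Inhbb separated the Control cells from all cells in calcification medium. Bmp4 encodes a BMP ligand (chromosome 14, 46620977 to 46628126 in the table, whose build is not stated). It stood at 5.43, 21.0 and 12.8 FPKM in Control replicates 1, 2 and 3. Calcification replicates 1 to 3 stood at 2.71, 4.36 and 4.08 FPKM, LV-Vector at 1.48, 4.39 and 4.92 FPKM, and LV-Klotho at 2.63, 4.44 and 3.82 FPKM. All 9 libraries in calcification medium lay below the lowest Control, although Control spread over a wide range, and replicate 1 was the lowest library in every group. The Control mean of 13.1 ± 7.80 FPKM and the Calcification mean of 3.72 ± 0.881 (SD, n = 3) gave a log2 fold change of -1.42 ± 0.42 (SE; adjusted p = 0.216, and 0.00655 with the block). Against Control, LV-Vector had -1.54 ± 0.42 (adjusted p = 0.0351) and LV-Klotho -1.45 ± 0.42 (adjusted p = 0.152, and 0.00466 with the block).

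Inhbb encodes the beta B subunit of activins and inhibins (chromosome 1, 119343195 to 119349978 in the table). Its level was 10.8, 8.34 and 8.64 FPKM in Control and 31.5, 15.4 and 21.4 FPKM in Calcification. LV-Vector had 19.9, 13.6 and 30.0 FPKM, and LV-Klotho had 28.0, 13.6 and 16.2 FPKM. Every library in calcification medium exceeded every Control. The mean was 9.25 ± 1.32 FPKM in Control and 22.8 ± 8.10 FPKM in Calcification, 246% of Control (log2 1.17 ± 0.32; adjusted p = 0.181, and 0.0158 with the block). LV-Vector against Control gave a log2 fold change of 1.05 ± 0.32 (adjusted p = 0.0475), and LV-Klotho 0.93 ± 0.32 (adjusted p = 0.225, and 0.0402 with the block). Over all genes tested, 4.16% had all 9 libraries above the Controls and 2.78% had all 9 below. Among members, 1 was above (Inhbb) and 3 were below (Bmp4, Smad1 and Ltbp2).

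The other ligands overlapped between Control and Calcification. Tgfb1, the TGF-beta made by most tissues, had means of 10.95 ± 2.99 FPKM in Control, 14.4 ± 2.47 FPKM in Calcification, 16.3 ± 3.26 in LV-Vector and 13.5 ± 3.18 in LV-Klotho. Tgfb2, another TGF-beta ligand, stood at 7.72 ± 2.90 FPKM in Control and 4.39 ± 2.32 in LV-Vector. Against Control in LV-Vector, Tgfb1 rose (log2 0.54; adjusted p = 0.0983, and 0.0143 with the block) and Tgfb2 fell (log2 -0.74; adjusted p = 0.161, and 0.0221 with the block), both only when the block was used. Inhba, the activin beta A subunit, had a log2 fold change of -0.64 there and passed only with the block (adjusted p = 0.00568). Tgfb3 and Bmp6 had log2 fold changes of 0.16 and 0.25 in LV-Vector against Control and were not called.

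Of the genes placed under ligand processing and storage, a role not measured here, Ltbp2 stood apart. Ltbp2 encodes a matrix protein of the latent TGF-beta binding family (chromosome 12, 84829986 to 84923306 in the table). It was at 24.1, 26.9 and 24.3 FPKM in Control and at 9.69, 11.9 and 12.7 FPKM in Calcification. LV-Vector had 5.87, 10.4 and 16.4 FPKM, and LV-Klotho had 8.56, 9.94 and 11.2 FPKM. The Control libraries lay close together and above all 9 others, and LV-Vector was the most spread. The mean was 25.1 ± 1.53 FPKM in Control and 11.4 ± 1.57 in Calcification, 45.5% of Control (log2 -1.08 ± 0.26; adjusted p = 0.121, and 0.0137 with the block). Ltbp2 fell in LV-Vector (log2 -1.24 ± 0.26, adjusted p = 0.0189). In LV-Klotho its log2 fold change was -1.27 ± 0.26, just over the threshold at adjusted p = 0.0504 and at 0.00514 with the block.

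Its relatives had smaller fold changes. Ltbp1, which tethers latent TGF-beta to the matrix, had log2 fold changes of -0.11 in Calcification, -0.45 in LV-Vector and -0.24 in LV-Klotho against Control, and Ltbp3, of the same family, had -0.10, -0.15 and -0.21. Bmp1, a metalloprotease that cleaves procollagens and BMP antagonists rather than a BMP ligand, stood at 47.2 ± 7.51 FPKM in Control and 58.0 ± 7.19 in LV-Vector (log2 0.30, adjusted p = 0.174). None of these 3 was called in any comparison, with or without the block.

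No antagonist was called without the block, and Nbl1 was called with it in LV-Vector against Control. Nbl1, a secreted BMP antagonist of the Dan family, stood at 184, 228 and 185 FPKM in Control and 285, 254 and 243 FPKM in LV-Vector, with no overlap (log2 0.39 ± 0.14; adjusted p = 0.0784, and 0.048 with the block). Grem1, gremlin, also a secreted BMP antagonist, gave a log2 fold change of -0.56 (adjusted p = 0.0998, and 0.081 with the block). Fst and Fstl3, which bind activins, had -0.36 and -0.19, and Fstl1, a secreted relative of follistatin, had -0.35. With the block, and after base composition and transcript length were corrected as described further on, Nbl1 was at 0.03 (adjusted p = 0.866) and Fstl3 was called at -0.50 (adjusted p = 0.0182). Nog was at 0 to 0.378 FPKM and Chrdl1 at 0.008 to 0.468 FPKM over the 12 libraries.

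Receptors and co-receptors gave 0 calls in Calcification against Control and 3 in LV-Vector against Control, all lower. Bmpr2, the type II BMP receptor, was at 4.20, 7.54 and 5.04 FPKM in Control and 1.66, 2.22 and 2.83 FPKM in LV-Vector. Bmpr1a, a type I BMP receptor, was at 9.77, 14.4 and 9.93 FPKM in Control and 5.57, 6.90 and 5.91 FPKM in LV-Vector. Acvr2a, a type II activin receptor, was at 1.54, 2.45 and 2.51 FPKM in Control and 0.829, 1.26 and 1.25 FPKM in LV-Vector. Every LV-Vector library lay below every Control library for each of the 3. Bmpr2 fell by 1.01 ± 0.22 on the log2 scale (adjusted p = 0.0219), Bmpr1a fell by 0.78 ± 0.20 (0.0298) and Acvr2a fell by 0.58 ± 0.18 (0.0493).

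In Calcification the same receptors stood between Control and LV-Vector. Bmpr2 had a mean of 3.91 ± 0.642 FPKM there, Bmpr1a 9.55 ± 1.60 FPKM and Acvr2a 1.72 ± 0.411 FPKM, and each overlapped with Control. In LV-Klotho Bmpr2 was at 3.62 ± 1.03 FPKM, Bmpr1a at 10.4 ± 2.49 FPKM and Acvr2a at 1.39 ± 0.350 FPKM. Eng and Acvrl1 differed little between groups. Eng, an auxiliary TGF-beta receptor best known from endothelium, had group means of 115.6 to 125 FPKM. Acvrl1, a type I receptor for BMP9 and BMP10, had 29.2 to 32.0 FPKM. Endothelial markers, with 2 of 8 at a mean of 1 FPKM or more, summed to 10.9 FPKM at most in any library. The part of endothelial cells in these values was not tested. Tgfbr1, the type I TGF-beta receptor, stood at 2.44 ± 0.870 FPKM in Control and 1.59 ± 0.387 in LV-Vector. Tgfbr3, betaglycan, which presents TGF-beta to its receptors, was at 36.9 to 47.1 FPKM in Control and 26.4 to 33.2 FPKM in LV-Vector without overlap, yet was not called (log2 -0.46).

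Of the Smads, Smad1 and Smad5, which carry BMP signals, fell in LV-Vector against Control, and Smad2 and Smad3 were not called in any comparison. Smad1 (chromosome 8, 80065024 to 80126147 in the table) stood at 10.1, 8.07 and 9.66 FPKM in Control and 7.49, 5.59 and 5.99 FPKM in Calcification. LV-Vector had 5.44, 5.87 and 7.19 FPKM, and LV-Klotho had 7.01, 5.33 and 6.13 FPKM. All 9 libraries in calcification medium were below the lowest Control, with means of 68.6%, 66.5% and 66.4% of Control in the 3 groups. The log2 fold change was -0.48 ± 0.15 in Calcification (adjusted p = 0.225, and 0.0644 with the block), -0.52 ± 0.15 in LV-Vector (adjusted p = 0.0389) and -0.52 ± 0.15 in LV-Klotho (adjusted p = 0.15, and 0.043 with the block). Smad5, which shares the BMP receptors with Smad1, fell in LV-Vector from 5.73 ± 1.77 to 2.96 ± 0.416 FPKM (log2 -0.74 ± 0.20, adjusted p = 0.0367).

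Smad9, the third BMP Smad, had a log2 fold change of -0.63 in LV-Vector (adjusted p = 0.054, and 0.0228 with the block), and Smad4, the common partner, had -0.41 (adjusted p = 0.073, and 0.0483 with the block). Smad2 and Smad3, which answer TGF-beta and activin, had log2 fold changes of -0.12 and -0.09 in that comparison and of 0.03 and 0.09 in Calcification against Control. The receptor-activated and common Smads had a median log2 fold change of -0.47 in LV-Vector against Control, with all 6 negative. Over all genes tested, 5802 of 10758 had a positive fold change there. After base composition and transcript length were corrected as described further on, Smad2 was at 0.22 and the others between -0.465 and -0.10.

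Among the intracellular inhibitors, Smad7 had the largest difference. Smad7 blocks receptor signalling and is itself induced by TGF-beta. Its level was 16.4, 28.0 and 23.1 FPKM in Control, 7.72, 16.7 and 12.4 FPKM in Calcification, 7.01, 11.9 and 16.5 FPKM in LV-Vector and 6.85, 9.73 and 9.42 FPKM in LV-Klotho. Control overlapped with Calcification and LV-Vector, since Control replicate 1 was low, and did not overlap with LV-Klotho. With the block it fell in Calcification (log2 -0.85 ± 0.31; adjusted p = 0.301, and 0.0163 with the block), in LV-Vector (log2 -0.92; adjusted p = 0.0641, and 0.00474 with the block) and in LV-Klotho (log2 -1.26; adjusted p = 0.108, and 0.00227 with the block). Within replicates 1, 2 and 3 the Calcification library was below the Control library each time.

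The other inhibitory Smad, Smad6, which acts mainly on BMP receptors, had a log2 fold change of -0.17 in Calcification and -0.07 in LV-Vector. Skil, which encodes SnoN, a repressor of Smad target genes, stood at 1.86, 2.63 and 3.37 FPKM in Control and 1.39, 1.26 and 1.59 FPKM in LV-Vector, all lower, and fell there (log2 -0.57 ± 0.17, adjusted p = 0.0481). Smurf2, a ubiquitin ligase that targets Smads and receptors, had -0.48 at an adjusted p of 0.05, just over the threshold (0.0293 with the block). Smurf1, of the same family, was higher in every Calcification library (21.2 to 25.4 FPKM) than in every Control library (18.0 to 19.4 FPKM), and was not called (log2 0.30, adjusted p = 0.389). Ski, related to Skil, had group means of 30.4 to 33.8 FPKM.

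None of the 5 targets was called between any groups by limma or with the block alone. With the block and that correction together, Id1 (log2 -0.67, adjusted p = 0.0118) and Id3 (log2 -0.56, adjusted p = 0.0351) were lower in LV-Klotho than in Control. Id1, an inhibitor of DNA-binding transcription factors and a standard readout of BMP signalling, stood at 57.4, 57.1 and 59.4 FPKM in Control. It was at 31.6, 50.2 and 57.7 FPKM in Calcification, 43.0, 76.3 and 68.2 FPKM in LV-Vector and 26.2, 48.2 and 48.5 FPKM in LV-Klotho. Control was tight, all 3 LV-Klotho libraries lay below it, and LV-Vector lay on both sides of it. LV-Klotho against Control gave a log2 fold change of -0.54 ± 0.28 (adjusted p = 0.394, and 0.0908 with the block). Id3 had -0.38 in Calcification, -0.04 in LV-Vector and -0.45 in LV-Klotho. Id2 and Id4, of the same family, and Tgfbi, a matrix protein gene induced by TGF-beta, had log2 fold changes between -0.21 and 0.26 against Control.

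**Figure D2:**
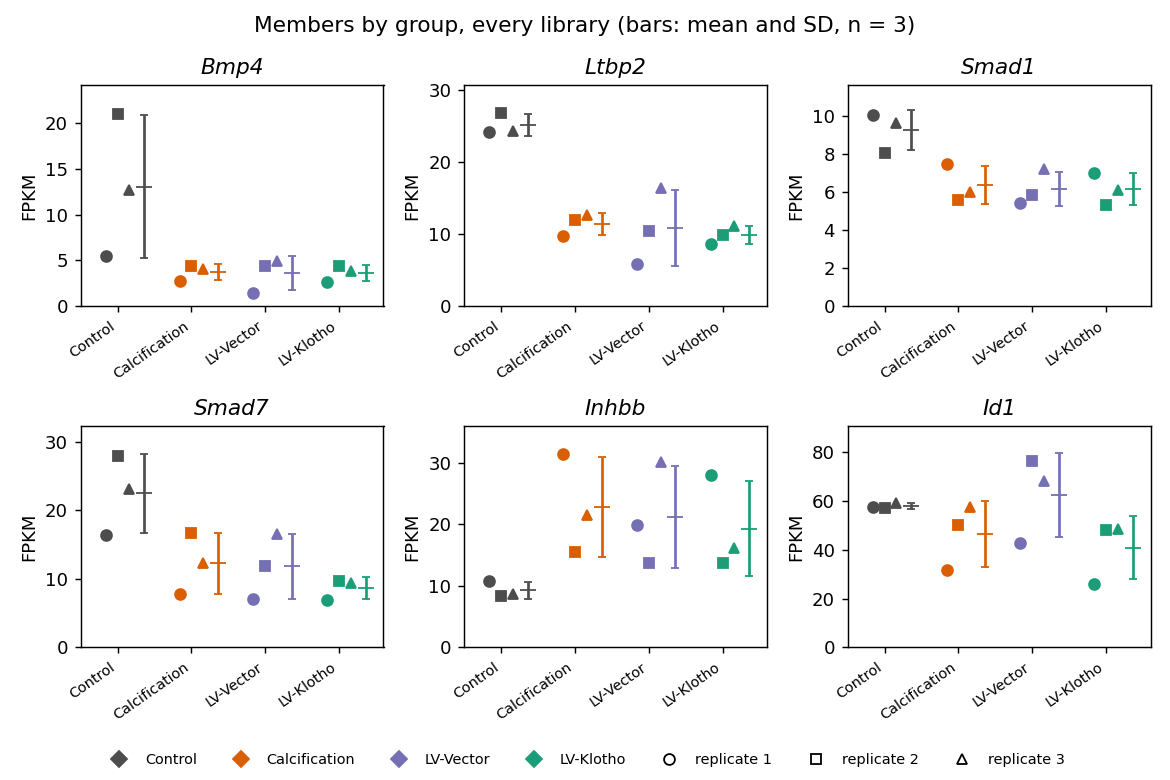
FPKM of 6 members in every library, by group, with the marker shape giving the replicate number and the bars the mean and SD (n = 3). For Bmp4, Ltbp2, Smad1 and Inhbb no library in calcification medium lies within the Control range, Smad7 overlaps in part, and for Id1 the LV-Klotho libraries (26.2 to 48.5 FPKM) lie below Control.

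In calcification medium, some markers of other cells differed too, and their part in the values above was not tested. Mesothelial markers (3 of 6 in the table at a mean of 1 FPKM or more) summed to 6.07 to 19.3 FPKM in Control and 33.4 to 115 FPKM in the other groups, mainly through Msln, mesothelin, whose mean was 5.28 FPKM in Control and 57.7 FPKM in Calcification. Upk3b, of the same list, was lower, at 3.91, 7.93 and 2.84 FPKM in Control and 3.23, 6.15 and 1.57 FPKM in Calcification. It was called lower in LV-Vector only with the block (log2 -0.39, limma adjusted p = 0.557, and 0.0295 with the block). Krt19 was at 1.73, 0.716 and 1.73 FPKM in Control and 1.67, 1.98 and 1.40 FPKM in Calcification. Adventitial fibroblast markers (6 of 8) summed to 528 to 783 FPKM in Control and 646 to 1670 FPKM in the others, and the means of Ly6a were 547 FPKM in Control and 891 FPKM in Calcification, and those of Col14a1 56.0 and 16.3 FPKM. Most of each sum was Ly6a, and 2 of the 6 tested markers had a positive fold change in each of the 3 comparisons with Control, with median log2 fold changes of -0.33, -0.39 and -0.38. Among 4 tested macrophage markers only Csf1r was called in LV-Vector against Control, from 4.17 ± 1.07 to 7.57 ± 1.20 FPKM (adjusted p = 0.0199). Of these 4, 3 had a positive fold change. Cd14 was at 15.7, 2.60 and 6.39 FPKM in Control and 6.51, 5.07 and 4.81 FPKM in LV-Vector. The sums of the list overlapped, at 28.9 to 122 FPKM in Control and 35.9 to 89.3 FPKM in LV-Vector. No listed marker gene was at 0 in every library. In bulk RNA, fewer cells of a type and less RNA per cell cannot be told apart.

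Single libraries decided several calls against Control. In Calcification with the block, Bmp4 was no longer called without Calcification replicate 2 (adjusted p = 0.054). Smad7 was lost without Control replicate 1 or 2 or Calcification replicate 1 or 3, Inhbb without Control replicate 1 or 3 or any Calcification library, and Ltbp2 without Control replicate 1 or 2 or Calcification replicate 2 or 3, at adjusted p up to 0.0833. The count of 4 ranged from 1 to 5. Over all genes 421 were called with the block, and 103 to 502 in these omissions. Without the block, Ltbp2 was called in Calcification and in LV-Klotho when LV-Vector replicate 1 or 3 was left out (adjusted p as low as 0.0249 and 0.0106). In LV-Vector without the block, the count of 9 was 0 without Control replicate 2, Control replicate 3 or LV-Vector replicate 2. Over all genes 1658 were called, and 168, 149 and 234 in these omissions. The loss was therefore not particular to the members. The member count was 1 without LV-Vector replicate 1 (183 of all genes), 5 without LV-Klotho replicate 2 (1117) and 6 without LV-Klotho replicate 3 (1443) or LV-Vector replicate 3 (1125). With the block, the count of 17 was 8 without Control replicate 2 or LV-Vector replicate 2, 6 without Control replicate 3 and 10 without LV-Vector replicate 1. Over all genes 3211 were called with the block, 989 without Control replicate 2 and 845 without Control replicate 3. Bmp4, Bmpr1a, Bmpr2, Smad7, Inhba and Ltbp2 kept their call there in all 12 omissions. In LV-Klotho with the block, Bmp4, Smad7 and Ltbp2 kept theirs in all 12, Smad1 in 4 and Inhbb in 3. Both of the latter were lost when any 1 Control or LV-Klotho library, Calcification replicate 2 or LV-Vector replicate 2 was left out, and Inhbb also without Calcification replicate 3. That count of 5 was 3 without Control replicate 2 or 3, Calcification replicate 2, LV-Klotho replicate 2 or 3, or LV-Vector replicate 2.

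Base composition and transcript length went along with the LV-Vector difference. Across 10733 genes, which are not independent replicates, the log2 fold change in LV-Vector against Control correlated with GC content at 0.399 and with log2 exon length at -0.428. In Calcification against Control the correlations were 0.205 and -0.137. The median exon length was 5205 bases for the members and 4116 bases for all genes. With both corrected, an alternative added after seeing the data, 2 members stayed called in LV-Vector against Control, Bmp4 (log2 -1.79, adjusted p = 0.0451) and Ltbp2 (log2 -1.23, adjusted p = 0.0281), where 4.86% of all genes were. Bmpr2 went from -1.01 to -0.41, Skil from -0.57 to -0.12, Acvr2a from -0.58 to -0.25, Smad5 from -0.74 to -0.43, Bmpr1a from -0.78 to -0.47 and Nbl1 from 0.39 to 0.03. Smad1 was at -0.43 and Inhbb at 0.86 after it. With the correction and the block together, 10 members were called, where 18.5% of all genes were. The same fit called 5 members in Calcification (5.34% of all genes) and 7 in LV-Klotho (7.76% of all genes) against Control.

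**Figure D3:**
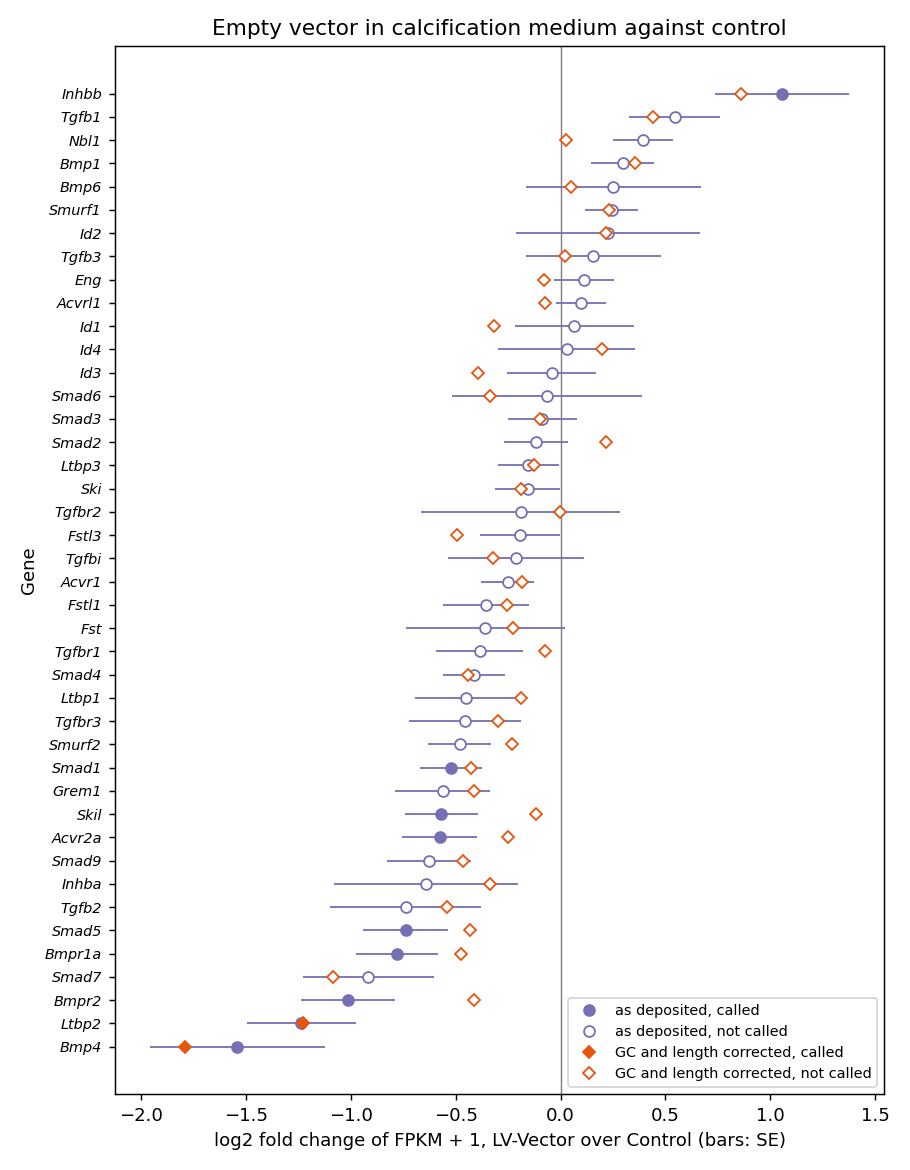
Log2 fold changes (horizontal axis, FPKM + 1, LV-Vector over Control) of the 42 tested members, with circles for the values as deposited (bars: SE) and diamonds after correction for GC content and length, filled where called. Most members lie left of 0, and the diamonds of Bmpr2, Skil and Acvr2a sit nearer 0 than their circles. The diamond of Ltbp2 is almost level with its circle, and that of Bmp4 lies further from 0.

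The second question was what the αKlotho lentivirus did in calcification medium. In the libraries labelled Klotho against LV-Vector, 0 of 42 members were called by limma and 0 by limma-voom, and 0% of all genes were called. At an unadjusted limma p under 0.05 stood 3 members and 1514 of all 10758 genes. Bmpr1a, Skil and Smurf2 were higher in every LV-Klotho library than in every LV-Vector library, and Nbl1 was lower, where 21.7% of all genes had no overlap. Bmpr1a was at 5.57 to 6.90 FPKM in LV-Vector and 7.68 to 12.5 FPKM in LV-Klotho (log2 0.66 ± 0.20, adjusted p = 0.24). Smurf2 gave a log2 fold change of 0.34 ± 0.15 (adjusted p = 0.333), Skil 0.22 ± 0.17 (0.586) and Nbl1 -0.30 ± 0.14 (0.369). In this comparison fold changes correlated with GC content at -0.544 and with log2 length at 0.42 across genes. After correction for both, Bmpr1a had 0.40, Smurf2 0.16, Skil -0.15 and Nbl1 -0.01.

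Id1 and Id3 had lower means in LV-Klotho than in LV-Vector, with overlap, and the 5 targets had a median log2 fold change of 0.00. Id1 was at 41.0 ± 12.8 FPKM against 62.5 ± 17.4 (log2 -0.61 ± 0.28, adjusted p = 0.361) and Id3 at 194 ± 39.4 FPKM against 257 ± 47.6 (log2 -0.41 ± 0.21, adjusted p = 0.404). After correction for GC content and length these were -0.36 and -0.17. Id2 had 0.04 and Id4 0.00. The members that separated Control from calcification medium differed little here: log2 fold changes were 0.09 ± 0.42 for Bmp4, -0.13 ± 0.32 for Inhbb, -0.03 ± 0.26 for Ltbp2 and 0.00 ± 0.15 for Smad1. With 3 libraries a group, differences well above the size of these errors could also go uncalled, as for Bmpr1a in this comparison (0.66 ± 0.20). Small fold changes here therefore do not exclude a difference.

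Against Calcification, which has no named virus, 0 members were called by limma in LV-Vector (6 at an unadjusted p under 0.05) or in LV-Klotho (0 at an unadjusted p under 0.05), with 0 by limma-voom in both and 0% of all genes called. Of all 10758 genes, 1520 in LV-Vector and 337 in LV-Klotho were at an unadjusted limma p under 0.05. LV-Vector lay below Calcification without overlap for Bmpr1a, Bmpr2, Acvr2a, Smad5, Skil and Smurf2 and above it for Nbl1, where 17.4% of all genes had no overlap. The furthest was Bmpr2, at 4.05, 4.46 and 3.20 FPKM in Calcification and 1.66, 2.22 and 2.83 FPKM in LV-Vector (log2 -0.61 ± 0.22, adjusted p = 0.317). Fold changes here correlated with GC content at 0.416 and with log2 length at -0.536 across genes. After correction for both, Bmpr2 was at -0.17 and the furthest was Tgfbr3 (-0.38). LV-Klotho had no member without overlap with Calcification, where 7.45% of all genes had none, and its furthest member was Smad7 (log2 -0.41 ± 0.31, adjusted p = 1).

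The replicate number, whose meaning the labels do not give, went along with many members. Tested over the 12 libraries with group as the other term, 14 of 42 members were called (limma F-test), 33.3% where 12.4% of all genes were, and 11 of them were lower and 3 higher in the replicates numbered 1. In 6 members the replicates numbered 1 lay below all other libraries, where 2.03% of all genes did so. Smad6 stood at 18.5, 13.9, 16.2 and 13.3 FPKM in replicate 1 of Control, Calcification, LV-Vector and LV-Klotho, and at 28.8 to 40.9 FPKM in the other 8 libraries (adjusted p = 8.05e-05). Inhba was at 3.79 to 6.25 FPKM against 7.59 to 13.7 FPKM, and Id2 at 10.7 to 14.9 FPKM against 19.1 to 33.6 FPKM. Tgfb3, at 17.5 to 19.2 FPKM against 23.7 to 38.1 FPKM, Bmp6 and Fst were the others.

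In the opposite direction, Tgfbr2 and Tgfbi lay above all other libraries in the replicates numbered 1, where 2.38% of all genes did so. Tgfbr2, the type II TGF-beta receptor, was at 41.1, 59.2, 29.9 and 59.1 FPKM in replicate 1 of Control, Calcification, LV-Vector and LV-Klotho and at 18.6 to 25.6 FPKM elsewhere (adjusted p = 0.00245). Tgfbi was at 1.13 to 2.10 FPKM against 0.477 to 0.954 FPKM. Markers moved with the same 4 libraries, and their part in these differences was not tested. Acta2 and Myh11 were lowest there, with 7 of the 9 smooth muscle markers at a mean of 1 FPKM or more below all other libraries (sums of 159 to 281 FPKM against 681 to 1230 FPKM). Macrophage markers were higher there, 3 of 4 above all other libraries (sums of 80.9 to 122 FPKM against 28.9 to 55.4 FPKM), with Lyz2 at 56.0 to 88.7 FPKM against 16.1 to 37.2 FPKM. Of 6 adventitial fibroblast markers 2 were above all others, Dcn at 27.5 to 58.8 FPKM against 3.95 to 16.6 FPKM and Dpt at 8.59 to 11.3 FPKM against 1.24 to 3.89 FPKM (sums of the list 783 to 1670 FPKM against 528 to 1080 FPKM). Tgfb1 was the third member called higher, and Tgfb2, Bmp4, Smad7, Id1 and Id4 were the others called lower.

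**Figure D4:**
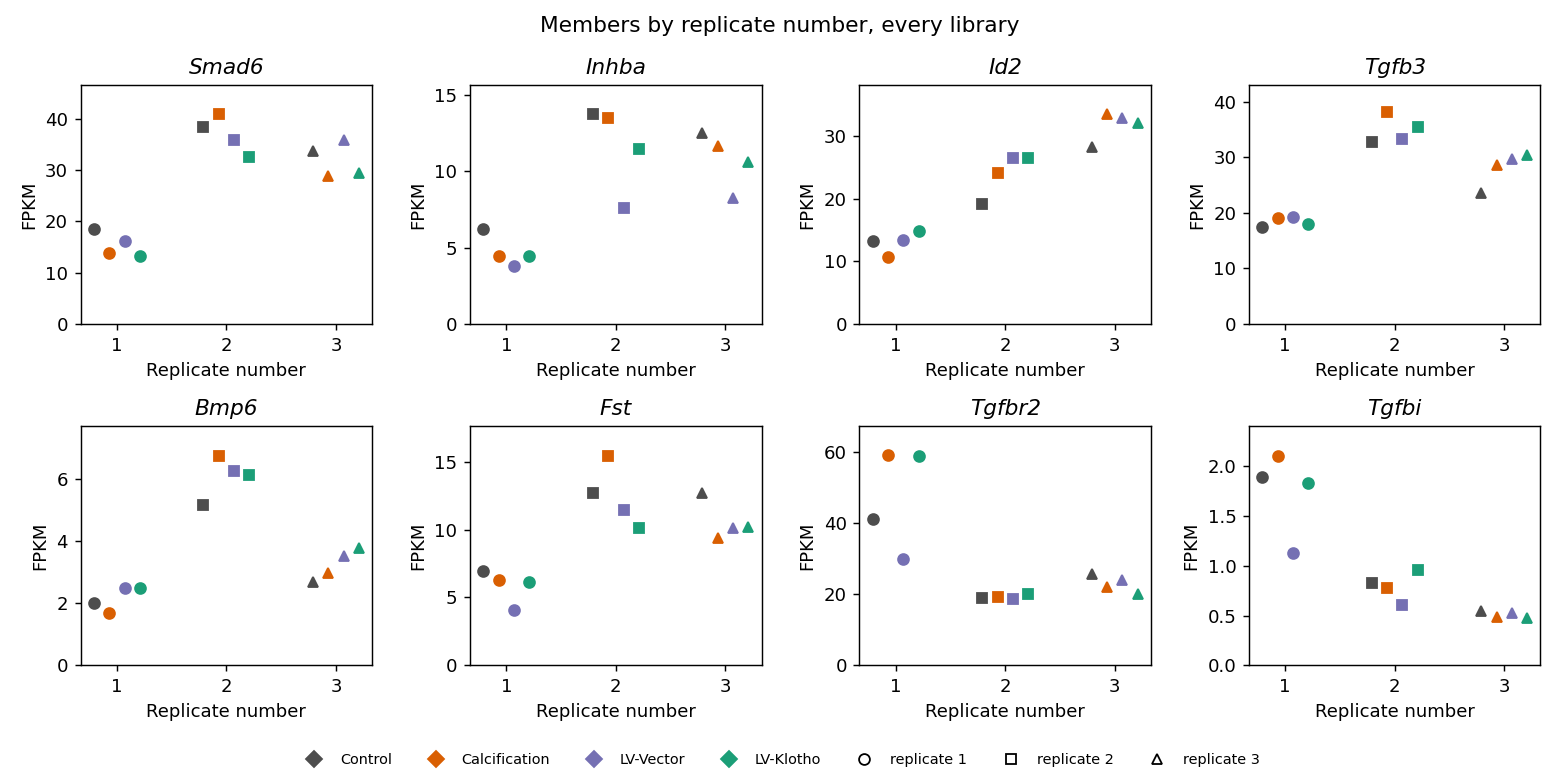
FPKM of 8 members in every library (vertical axis) by replicate number (horizontal axis), with colour giving the group. In Smad6, Inhba, Id2, Tgfb3, Bmp6 and Fst the 4 libraries of replicate 1 lie below the other 8, and in Tgfbr2 and Tgfbi above them.

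Other genes of the pathway, 69 on a list made from general knowledge, of which 43 were tested, are given for the same comparisons. In LV-Vector against Control, 0 rose and 8 fell (median log2 -0.30, against 0.04 over all genes), and with the block 3 rose and 16 fell, where 15.4% and 29.8% of all genes were called. Itgav, an integrin subunit that helps release latent TGF-beta, went from 37.2 ± 5.25 to 14.5 ± 1.73 FPKM (log2 -1.30 ± 0.21, adjusted p = 0.0104). Zfyve9 (SARA, which anchors Smad2 and Smad3 at the receptor) had a log2 fold change of -0.66, Twsg1, which modulates BMPs, -0.73, and Crim1, which binds BMPs, -1.04. With GC content and length corrected 3 of the 43 were called, where 4.86% of all genes were, and the median was -0.15. In Calcification against Control 0 were called by limma or limma-voom. At an unadjusted limma p under 0.05 were 5 of the 43, and 1239 of all 10758 genes. With the block Bmp8a rose (log2 0.82), and Gdf11, a TGF-beta family ligand (log2 -0.48), and Pcsk6, a convertase that processes such ligands, fell. Over all genes 3.91% were called there with the block. Pcsk6 went from 17.7 ± 8.16 to 7.22 ± 2.65 FPKM (log2 -1.14 ± 0.41; adjusted p = 0.3, and 0.000501 with the block). In LV-Klotho against Control 0 were called by limma or limma-voom, and with the block 5 fell, where 1.65% of all genes did. At an unadjusted limma p under 0.05 were 12 of the 43, and 1604 of all 10758 genes.

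Genes known to respond to TGF-beta gave 31 tested of 33. In LV-Vector against Control 4 fell, Plod2, Lox, Actn1 and Bgn, 0 rose, and the median log2 fold change was -0.34, where 7.98% of all genes were called lower. With the block 13 fell, where 14% of all genes did. With GC content and length corrected 2 of the 31 were called, at the same median, where 4.86% of all genes were. Plod2, a collagen lysyl hydroxylase, went from 63.5 ± 10.2 to 23.6 ± 6.97 FPKM (log2 -1.42 ± 0.26, adjusted p = 0.0127), and Lox, which cross-links collagen, from 1430 ± 221 to 619 ± 143 FPKM (log2 -1.22 ± 0.23, adjusted p = 0.0138). Both are also known to respond to low oxygen. In Calcification 0 were called by limma or limma-voom (median -0.30). At an unadjusted limma p under 0.05 were 4 of the 31, and 1239 of all 10758 genes. With the block 4 fell there, Plod2 (log2 -0.84), Bhlhe40 (-0.60), Ccn2 (-0.71) and Ccn1 (-0.58), where 1.17% of all genes did. In LV-Klotho 0 were called by limma or limma-voom (median -0.32), and 8 fell with the block, where 1.65% of all genes did. At an unadjusted limma p under 0.05 were 6 of the 31, and 1604 of all 10758 genes.

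Genes known to respond to BMPs, 10 tested of 18, had medians of 0.00, -0.04 and -0.07 in Calcification, LV-Vector and LV-Klotho against Control. Sox9, a cartilage transcription factor, fell in LV-Vector from 17.4 ± 4.59 to 10.5 ± 1.06 FPKM (log2 -0.65 ± 0.16, adjusted p = 0.0292), and Tgm2, a transglutaminase, rose there only with the block. With GC content and length corrected 0 of the 10 were called there. In Calcification and in LV-Klotho 0 were called by limma or limma-voom. At an unadjusted limma p under 0.05 was 1 of the 10 in each, where 1239 and 1604 of all 10758 genes were. In LV-Klotho against LV-Vector, 0 genes of the 3 lists were called without the block.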

How the data were processed

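RNA of 12 libraries (4 groups of 3) was analysed from the 1 table that the authors deposited. Its header states no unit. The deposited values were taken as FPKM: multiplied by GENCODE M21 exon length (found for 99.2% of genes), 98.07% to 98.35% of values under 100 fragments per library came out whole within 0.05, where 10% would by chance. Depth was derived from those steps. The tools CASAVA 1.8.2, STAR 2.4 and DESeq2 3.12 and the builds GRCm38 and GRCm39 are named, without roles, per the submitters' processing notes. For the counting tool, annotation and strand the setting is not given in the sources used here. Overlapping, antisense and near-identical genes therefore cannot be told apart with certainty. Of 25537 genes shared with the GRCm38 annotation 553 had its position, so positions are printed as in the table, and promoter positions from RefSeq on GRCm38.p6.

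A test for counts was planned for the case that the table held counts. Since the values are FPKM, limma 3.58.1 (R 4.3.3) with a mean-variance trend was run on log2(FPKM + 1), 1 fit over the 12 libraries with 1 coefficient per group, on the 10758 genes whose mean reached 1 FPKM. Benjamini-Hochberg adjustment covered all of these. FPKM are means ± SD, and log2 fold changes have SE. The fit was tested on simulated data.

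Replicate numbers come from the labels. For the correlation across genes of same-numbered libraries' deviations from their group means, the lowest and highest were 0.199 and 0.509 (Calcification against Control), 0.403 and 0.537 (LV-Vector against Control), 0.242 and 0.571 (LV-Klotho against Control) and 0.573 and 0.731 (LV-Klotho against Calcification), so the block is given beside these where it changes a call. They were 0.006 and 0.522 for LV-Klotho against LV-Vector and -0.063 and 0.497 for LV-Vector against Calcification, where the numbers were not taken as pairs.

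The GC and length correction removed from each library a smooth curve over genes (splines with 5 degrees of freedom each). Members, lists and tests were chosen with earlier results of these data known. All members are named, and of the other lists up to 4 called genes per comparison with the smallest adjusted p. Those called only with the block, Acta2, Myh11 and other marker genes were named in addition. The limit given for Kl covers counting error only.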

Additional observations from a re-analysis of the deposited data

How the results depend on the processing

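Of the members called in a comparison with or without the block, 0 changed sign there under any alternative run. Among all 252 pairs of a tested member and a comparison, the sign turned in 34 with the GC and length correction, 29 with replicates 2 and 3 alone, 14 with upper-quartile and 8 with median-ratio scaling, and 7 to 26 when 1 library was left out. Skil in LV-Klotho against LV-Vector, from 0.22 to -0.15, was the largest value that the correction turned. In Calcification against Control, 0 members were called; with the replicate block the count was 4, with the block and the GC and length correction 5, with replicates 2 and 3 alone 1, and leaving out a library with or without the block gave 0 to 5. In LV-Vector against Control, 9 were called; the block gave 17, no filter 0, the GC and length correction 2, and leaving out a library with or without the block 0 to 19 (with the block 6 without Control replicate 3, 16 without Calcification replicate 1 or 3, and 18 without Control replicate 1). Upper-quartile scaling ended the call of Inhbb there, and median-ratio scaling called 650 and 950 of all genes. Without the filter 388 of all genes were called there, against 1658 with it. In LV-Klotho against Control, 0 were called; the block gave 5, the block with the correction 7, replicates 2 and 3 alone 2, and a filter at 5 FPKM, upper-quartile or median-ratio scaling, limma-voom and the 6 compared libraries alone 1 each, and leaving out a library with or without the block 0 to 5. In LV-Klotho against LV-Vector the count was 0 throughout, apart from 1 with the block and without Control replicate 1 (0 to 1 over omissions), and in both comparisons with Calcification it was 0. The number called by replicate number was 12 to 15 over omissions. The cause of these shifts was not tested, apart from fewer libraries in the omissions.

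The block is given for each member whose call it changed, and it changed no other member's call in the comparisons where the numbers paired the libraries. Each member called with or without the block (4 in Calcification, 17 in LV-Vector and 5 in LV-Klotho against Control) was counted under each alternative. The omissions of a library with the block were not part of this count. In LV-Vector against Control 85 values lost their call, and 33 there, 11 in Calcification and 19 in LV-Klotho gained one. With 3 libraries a group, differences well above the printed SE could also go uncalled. Bmp4 in Calcification against Control, at -1.42 ± 0.42, was not called without the block (limma adjusted p = 0.216). Alternatives that leave out libraries with the block, and the correction, were chosen after seeing the data.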
